A study of Mus musculus with 28 samples.

Results

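The 36 genes described here encode the route from glucose to lactate or to acetyl-CoA: carriers that bring sugar into the cell, the enzymes of glycolysis, lactate dehydrogenase and the lactate carriers, and the proteins that take pyruvate into mitochondria and oxidise it. They were chosen as a list of gene symbols, and all 36 were among the 24391 symbols of the count table. Motor cortex was taken from 14 mice of the genotype Cx3CR1-Cre/TRAPfl, in which Cre made under the fractalkine receptor gene switches on a ribosomal tag that TRAP (translating ribosome affinity purification) pulls down with the bound mRNA. The 7 run mice spent 1 h on a rotarod before tissue collection, and the 7 home cage mice were the baseline. Each mouse gave 1 TRAP library and 1 library of the total lysate, so the 4 groups, run TRAP, home cage TRAP, run lysate and home cage lysate, held 7 libraries each. Both activities had 4 mice in cohort 1 and 3 in cohort 2, and 4 females and 3 males. All mice carried both alleles, so no library lacks the tag. Among brain cells Cx3cr1 marks microglia and also the macrophages at the borders of the brain.

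Glucose enters cells through facilitative carriers of the Slc2a family and is trapped by hexokinases as glucose 6-phosphate. Phosphofructokinase makes the committed step, and the Pfkfb enzymes set the level of its activator. Lower glycolysis yields pyruvate, which lactate dehydrogenase exchanges with lactate, and monocarboxylate carriers of the Slc16a family move lactate across the membrane. The mitochondrial pyruvate carrier and the pyruvate dehydrogenase complex lead pyruvate to oxidation, and pyruvate dehydrogenase kinases hold that complex back. Most steps have several gene copies used by different cell types. In brain, Slc2a1 is known from endothelium and glia, Slc2a3 and Hk1 from neurons, Aldoc from astrocytes and Slc2a5 from microglia.

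Run TRAP libraries held 104598915 to 241381845 counts each, home cage TRAP libraries 104405588 to 157669964, run lysate libraries 70090518 to 179477632, and home cage lysate libraries 84399875 to 169315558. The labels call the cell type microglia for both fractions. In TRAP the 16 homeostatic microglia markers summed to 30980 to 86560 CPM (counts scaled to the effective library size), and in lysate to 529 to 719 CPM. The 11 neuronal markers summed to 2065 to 8835 CPM in TRAP and to 8407 to 17740 CPM in lysate, so TRAP libraries held neuronal mRNA too. All 16 microglia markers were called higher in TRAP than in lysate (median log2 fold 6.56, Cx3cr1 6.92 ± 0.14 SE), as were all 8 markers of border-associated macrophages (median 6.11). All 11 neuronal markers were lower (median -1.45, Snap25 -1.82 ± 0.14), with 8 of 9 astrocyte markers (median -0.65, Gfap -1.49 ± 0.13) and 7 of 8 oligodendrocyte markers (median -1.40, Mbp -1.44 ± 0.15). Of the 11 endothelial markers 10 were higher in TRAP (median 1.63, Cldn5 2.66 ± 0.21), and of 8 mural markers 4 were higher and 1 lower. No marker of these lists was at 0 in every library of a group. In 24 of 28 libraries the Y-linked level matched the sex in the title. The exceptions were 4 libraries, TRAP and lysate of the cohort 2 run mice titled Male1 and Female2, and results are also given without these 2 mice.

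Slc2a5, Hk2, Hk3 and Slc16a3 set the upper end of the comparison of the fractions, and the bases before their RefSeq starts are shown because their mRNAs were the most TRAP-enriched of the 36. Slc2a5 encodes a fructose carrier, Hk2 and Hk3 are hexokinases and Slc16a3 is the lactate carrier MCT4. The windows are chr4:150119094-150119282 (plus strand), chr6:82774455-82774704 (minus), chr13:55021386-55021635 (minus) and chr11:120948817-120949052 (plus) on GRCm38.p6. They are written 5′ to 3′ on the strand of the gene and leave out 61 bases for Slc2a5 and 14 for Slc16a3 that GENCODE annotates as exon. The Slc16a3 window lies downstream of the most upstream exon that GENCODE gives the gene. Capitals mark ACGTG or its reverse complement CACGT, the core of the hypoxia-response element.
Slc2a5: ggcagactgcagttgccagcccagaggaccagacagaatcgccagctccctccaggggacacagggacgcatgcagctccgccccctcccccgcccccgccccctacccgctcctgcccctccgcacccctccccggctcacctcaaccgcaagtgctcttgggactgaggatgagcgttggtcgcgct
Hk2: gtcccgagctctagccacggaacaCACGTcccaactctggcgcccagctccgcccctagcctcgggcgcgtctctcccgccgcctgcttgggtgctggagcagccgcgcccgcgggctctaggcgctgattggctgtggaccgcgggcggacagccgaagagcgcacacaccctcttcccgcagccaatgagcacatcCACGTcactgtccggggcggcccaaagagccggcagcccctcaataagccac
Hk3: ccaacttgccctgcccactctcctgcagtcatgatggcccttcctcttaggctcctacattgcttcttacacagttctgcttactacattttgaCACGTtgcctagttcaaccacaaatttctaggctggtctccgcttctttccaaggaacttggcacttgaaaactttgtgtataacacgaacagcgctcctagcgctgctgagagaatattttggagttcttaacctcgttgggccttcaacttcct
Slc16a3: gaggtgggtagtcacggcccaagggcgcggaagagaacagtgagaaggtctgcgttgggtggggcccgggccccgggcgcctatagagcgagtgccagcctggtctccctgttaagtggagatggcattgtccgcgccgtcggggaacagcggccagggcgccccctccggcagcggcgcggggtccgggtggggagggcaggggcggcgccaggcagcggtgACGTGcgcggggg

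The core was present 2 times before Hk2, 1 time before Hk3, 1 time in the Slc16a3 bases printed and 0 times before Slc2a5. Over the 250 bases before each start, counted on both strands with overlapping matches taken as 1 site, 16.6% of the 32851 promoters of the RefSeq table held it. Of the 36 genes, 34 had an entry, with 51 starts. The core stood before 20 of the 51 starts, and 16 genes held it before at least 1 start. The 16.6% is a share of single starts, so it stands beside 20 of 51 and not beside 16 of 34. Windows of neighbouring starts can overlap, so that a site is counted again at the next start, as for Aldoa. Promoters were not matched for GC content. The letters GAGGAAGT, a form of the site read by the myeloid factor PU.1, stood before 0 of the 51 starts. They stood before 2.44% of all promoters, a share so low that 0 of 51 says little. Sites reaching past the start were not counted. These are matches of letters, not shown to be bound. GC content of the printed bases was 69.8% for Slc2a5, 69.6% for Hk2, 47.2% for Hk3 and 73.3% for Slc16a3.

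Against total lysate, microglial TRAP libraries were high in 1 set of isoforms and low in another, while most of the shared pathway enzymes were moderately lower. edgeR called 10 of the 36 genes higher in TRAP and 22 lower, and 4 were not called. Of the 16716 genes tested, 34.0% were called higher and 40.1% lower at an adjusted p under 0.05. The median log2 fold of the 36 was -0.54, and over all tested genes it was -0.20. The largest folds belonged to Slc2a5 (6.38), Hk3 (6.18) and Hk2 (5.92), beside a median of 6.56 for the microglia markers, and Slc16a3 followed at 3.40. The lowest were Pfkp at -1.90 and Pdk4 at -1.81. Within bulk libraries of this kind, fewer cells of a type and less RNA per cell cannot be told apart. Without the 2 mice whose sex markers went against the titles the counts were again 10 higher and 22 lower.

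**Figure D1:**
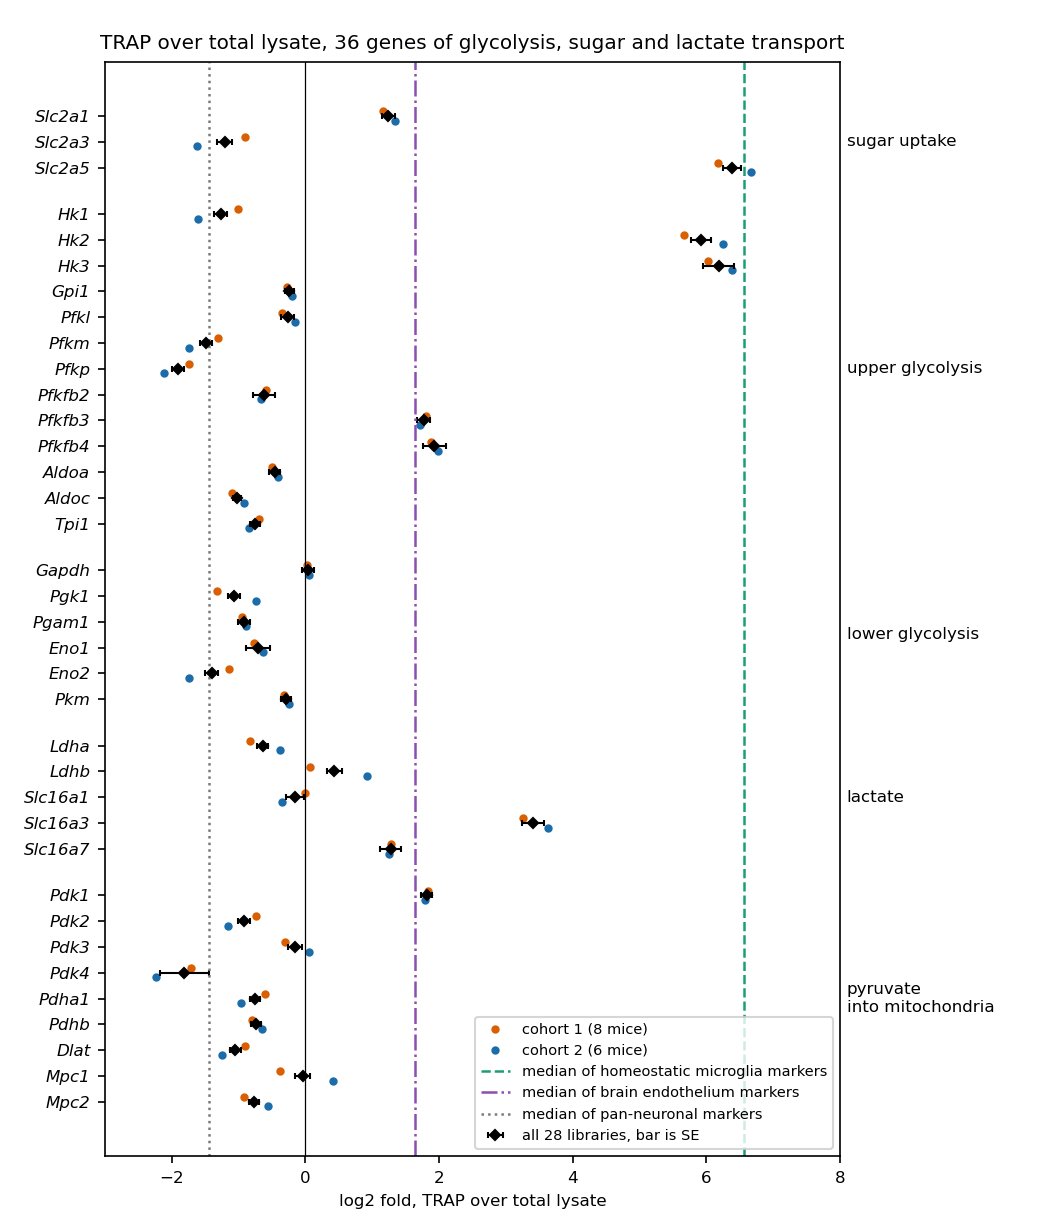
Log2 fold of TRAP over total lysate for the 36 genes, ordered by step of the pathway. Diamonds are the fit over all 28 libraries with its SE, small dots the fits within each cohort, and vertical lines the median folds of 3 marker lists. Slc2a5, Hk2 and Hk3 stand near the line of the microglia markers, and Pfkp, Pdk4, Pfkm and Eno2 near or beyond that of the neuronal markers.

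Sugar carriers differed between the fractions in both directions. Slc2a5 lies at chr4:150119283-150144169 (GRCm38, plus strand) and none of its 50-base windows occurs in another annotated gene. In cohort 1 it ran from 213 to 386 CPM in TRAP, with a median of 338, against 3.19 to 7.09 CPM in lysate, with a median of 4.17. In cohort 2 the TRAP libraries held 524 to 633 CPM (median 583) and the lysate libraries 4.46 to 7.52 CPM (median 5.71). Every TRAP library was far above every lysate library, an 83.5-fold difference (log2 6.38 ± 0.14, adjusted p = 1.1e-26).

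Slc2a1, the carrier of the blood-brain barrier and of many glia, was at 45.6 to 227 CPM in TRAP (median 78.0) and 21.6 to 70.4 CPM in lysate (median 32.9), ranges that overlapped over all libraries and were apart within each cohort. It was 2.37-fold higher in TRAP (log2 1.24 ± 0.10, adjusted p = 4.0e-12) and higher in TRAP in all 14 mice. Its log2 fold lay below the median of the endothelial markers, 1.63, whose summed level was 295 to 949 CPM in TRAP and 183 to 328 CPM in lysate. The part of endothelial mRNA in its level was not tested. Slc2a3, the high-affinity neuronal carrier, ran the other way, at 23.6 to 50.5 CPM in TRAP (median 36.7) and 55.2 to 118 CPM in lysate (median 80.7). All TRAP libraries were below all lysate libraries, and the fit gave a 2.31-fold lower level in TRAP (log2 -1.21 ± 0.12, adjusted p = 1.0e-10). The neuronal markers had a median of -1.45 in this comparison, and their part in the values of Slc2a3 and of the other genes lower in TRAP was not tested.

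The hexokinases split as well. Hk2, the insulin-responsive form bound to mitochondria, lies at chr6:82725025-82774454 on the minus strand. It ran from 95.3 to 206 CPM in TRAP (median 141) and from 1.22 to 3.38 CPM in lysate (median 2.39), a 60.7-fold difference (log2 5.92 ± 0.15, adjusted p = 7.3e-25). Hk3, the form of myeloid cells, lies at chr13:55005985-55021385 on the minus strand and overlaps 34 exon bases of Unc5a on the opposite strand. In cohort 2 it was at 90.5 to 128 CPM in TRAP (median 104) and 1.16 to 1.49 CPM in lysate (median 1.24). In cohort 1 it was at 13.9 to 30.4 CPM in TRAP (median 19.9) and 0.104 to 0.834 CPM in lysate (median 0.31). Levels of both fractions were thus higher in cohort 2, while the log2 fold of TRAP over lysate was 6.38 ± 0.14 in cohort 2 and 6.02 ± 0.40 in cohort 1, a difference that was not called (adjusted p = 0.58). Over all libraries Hk3 was 72.7-fold higher in TRAP. That fold rests on low lysate counts, 13 to 322 per library. In lysate of cohort 1 they were 13 to 53 in home cage mice and 14 to 99 in run mice. Hk1, the constitutive brain form, was lower in TRAP, at 42.7 to 109 CPM (median 65.3) against 100 to 312 CPM in lysate (median 136), 2.41-fold (log2 -1.27 ± 0.10, adjusted p = 1.1e-12). The fractions were apart within each cohort.

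Among the later steps of upper glycolysis, the Pfkfb enzymes that raise phosphofructokinase activity were split as well. Pfkfb3, the form with the highest kinase activity, was at 47.2 to 92.7 CPM in TRAP (median 62.7) and 14.9 to 24.6 CPM in lysate (median 19.7), 3.40-fold higher (log2 1.77 ± 0.10). Pfkfb4 was also higher (1.93 ± 0.17), at 8.08 to 69.3 CPM in TRAP and 1.64 to 17.1 CPM in lysate. Both were higher in TRAP in all 14 mice. Pfkfb2 was lower in TRAP, with a log2 fold of -0.62 ± 0.16 and 17.3% of its 50-base windows shared with other genes, 15.9% with the overlapping gene Gm29427.

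The 3 phosphofructokinase subunits were all lower in TRAP, by unequal amounts. Pfkp, the platelet type, was at 47.6 to 105 CPM in TRAP (median 71.2) and 222 to 316 CPM in lysate (median 278), 3.74-fold lower (log2 -1.90 ± 0.09, adjusted p = 6.1e-18). It shares 748 exon bases with Pitrm1 on the opposite strand. Pfkm, the muscle type, was 2.80-fold lower (-1.49 ± 0.09), and Pfkl, the liver type, 1.21-fold lower (-0.27 ± 0.09, adjusted p = 0.0093). Gpi1, which turns glucose 6-phosphate into fructose 6-phosphate, was at -0.24 ± 0.07. Aldoc, the astrocyte aldolase, was at 648 to 1229 CPM in TRAP and 1359 to 2346 CPM in lysate, 2.03-fold lower (-1.02 ± 0.07), while the widespread Aldoa was 1.38-fold lower (-0.46 ± 0.08). Triose-phosphate isomerase, Tpi1, was at -0.76 ± 0.07. The calls for Gpi1, Pfkl and Aldoa were lost without the cohort term (adjusted p 0.45, 0.56 and 0.081), and those for Gpi1 and Pfkl also in cohort 2 alone (0.15 and 0.31).

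In lower glycolysis 5 of 6 genes were called lower in TRAP and 0 higher. Gapdh, which makes the first NADH of the pathway, did not pass, with 284 to 1295 CPM in TRAP and 246 to 1142 CPM in lysate (log2 0.04 ± 0.09, adjusted p = 0.67). Eno2, the neuron-specific enolase, was at 131 to 261 CPM in TRAP (median 193) and 384 to 760 CPM in lysate (median 448), 2.65-fold lower (-1.40 ± 0.10, adjusted p = 8.9e-14). Pgk1, which yields the first ATP, was at -1.07 ± 0.09, Pgam1 at -0.92 ± 0.09 and pyruvate kinase Pkm at -0.29 ± 0.08. Eno1, the enolase of most other cells, was called lower (-0.71 ± 0.18, adjusted p = 0.00083), yet its counts ran from only 68 to 817 per library. The call for Pkm was lost without the cohort term (adjusted p 0.41), in cohort 2 alone (0.11) and in home cage libraries alone (0.091), and that for Eno1 in cohort 1 alone (0.070) and in home cage libraries alone (0.069).

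Counting of near-identical copies limits these enzymes. Eno1b, an annotated near copy of Eno1, held 51.4% to 182% of its count, so the level of Eno1 and any share among the enolases are uncertain. Of the 50-base windows of each gene's transcripts, 53.9% recur in other genes for Pgk1, 36.2% for Pgam1, 26.0% for Eno1, 25.8% for Pkm, 25.1% for Gapdh and 21.0% for Ldhb. How reads mapping to several places were counted is not known here. For Slc2a5, Hk2, Hk3, Pfkfb4, Aldoc, Slc16a1, Slc16a3, Pdk1, Pdk2, Pdk3 and Dlat no window recurs.

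The lactate carriers differed as well. Slc16a3 lies at chr11:120948480-120960868 on the plus strand. In cohort 1 it ran from 5.69 to 14.8 CPM in TRAP (median 11.6) against 0.682 to 1.99 CPM in lysate (median 1.17). In cohort 2 it was at 29.1 to 50.5 CPM in TRAP (median 35.8) and 2.19 to 4.18 CPM in lysate (median 2.92). The fold was 10.6 over all libraries (log2 3.40 ± 0.16, adjusted p = 5.2e-18), 3.25 ± 0.24 on the log2 scale in cohort 1 and 3.63 ± 0.19 in cohort 2. Slc16a7, the high-affinity carrier MCT2, was 2.42-fold higher in TRAP (1.27 ± 0.16), at 4.87 to 37.9 CPM against 3.44 to 15.4 CPM in lysate. It was higher in TRAP in all 14 mice, and the fractions were apart in cohort 1 and overlapped in cohort 2. Slc16a1, the carrier MCT1 of endothelium and oligodendrocytes, did not pass (-0.15 ± 0.13, adjusted p = 0.29), and it was higher in TRAP in 7 of 14 mice. Beside it, the endothelial markers had a median of 1.63 and the oligodendrocyte markers one of -1.40, and their part was not tested.

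Ldhb, the heart-type subunit of lactate dehydrogenase, was called higher in TRAP (0.43 ± 0.11, adjusted p = 0.0011), but the cohorts differed. In cohort 2 it was at 1438 to 2392 CPM in TRAP and 749 to 969 CPM in lysate, and in cohort 1 at 734 to 1070.0 CPM in TRAP and 728 to 998 CPM in lysate. The groups were apart in cohort 2 (0.92 ± 0.13, adjusted p = 1.7e-05) and overlapped in cohort 1 (0.06 ± 0.08, adjusted p = 0.52). The highest TRAP level belonged to the run mouse titled Female2 of cohort 2, and without the 2 mice whose sex markers went against the titles the log2 fold was 0.25 (adjusted p = 0.016). Ldha, the muscle-type subunit, was lower in TRAP, at 216 to 562 CPM (median 282) against 378 to 594 CPM in lysate (median 498), 1.56-fold (-0.64 ± 0.08).

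At the entry of pyruvate into mitochondria 1 of 9 genes was higher in TRAP and 6 were lower. Pdk1, a pyruvate dehydrogenase kinase induced by hypoxia, was the one higher, at 88.5 to 266 CPM in TRAP (median 191) and 32.8 to 73.8 CPM in lysate (median 53.7), 3.52-fold (log2 1.81 ± 0.08, adjusted p = 2.3e-18). Pdk2, the most widespread kinase, was 1.89-fold lower (-0.92 ± 0.09). Pdk4, the kinase induced by fasting and glucocorticoids, was 3.51-fold lower (-1.81 ± 0.37, adjusted p = 5.9e-05), with a wide range of 0.28 to 19.8 CPM in TRAP and 4.48 to 34.6 CPM in lysate. Pdk3 did not pass (-0.16 ± 0.11). The complex itself was lower in TRAP, with Dlat, its acetyltransferase core, at -1.05 ± 0.09, Pdha1 at -0.75 ± 0.08 and Pdhb at -0.74 ± 0.07. Of the pyruvate carrier, Mpc2 was lower (-0.77 ± 0.07). Mpc1 did not pass over all libraries (-0.04 ± 0.11), and the cohorts were called in opposite directions (0.41 ± 0.13 in cohort 2, -0.38 ± 0.11 in cohort 1).

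Levels per kilobase of exon put genes on a common scale, within limits. The length is that of all annotated exons of a gene, not of the transcripts expressed. Windows shared with other genes (above) and base composition (below) were not corrected for. On that scale the order in TRAP began with Ldhb at 781 ± 308 CPM per kb (SD, n = 14), Aldoa at 461 ± 199.5, Aldoc at 268 ± 64.6, Pkm at 153 ± 81.5, Gapdh at 151 ± 90.2, Tpi1 at 132 ± 40.5 and Slc2a5 at 127 ± 41.4. From Pkm to Slc2a5, neighbours in this order lay within their SD of each other. The SD pools 2 cohorts that stood apart in level, and the order behind the first 3 genes was not the same in both. In cohort 2 it went on with Gapdh (246 ± 42.6), Pkm (239 ± 37.8), Tpi1 (170.5 ± 31.3) and Slc2a5 (170.2 ± 10.7 CPM per kb, SD, n = 6). In cohort 1 it went on with Tpi1 (103 ± 11.0), Slc2a5 (93.9 ± 15.6), Pkm (87.7 ± 7.8) and Gapdh (78.8 ± 7.5 CPM per kb, n = 8). In lysate Aldoa was at 628 ± 239, Ldhb at 549.5 ± 64.4 and Aldoc at 539 ± 100.2 CPM per kb over both cohorts. Lysate of cohort 2 had the order Aldoa (881 ± 88.1), Aldoc (631.5 ± 72.1) and Ldhb (569 ± 53.7). Lysate of cohort 1 had the order Ldhb (535 ± 71.3), Aldoc (470 ± 46.7) and Aldoa (438 ± 70.5). Over both cohorts Slc2a5 stood in place 31 of 36 in lysate, at 1.47 ± 0.38. Hk3 was last in lysate, at 0.20 ± 0.14 CPM per kb, and Hk2 was in place 34, at 0.40 ± 0.09, while in TRAP they were in places 23 and 17. Within TRAP of cohort 2 Hk3 was in place 17, at 28.6 ± 3.8 CPM per kb, and within TRAP of cohort 1 in place 28, at 6.07 ± 1.77. The 3 sugar carriers summed to 84.5 to 231 CPM per kb in TRAP and 16.9 to 37.1 CPM per kb in lysate. The 13 genes of upper glycolysis summed to 680 to 1715 CPM per kb in TRAP (median 792) and 1041 to 2308 in lysate (median 1350.0).

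Shares of the isoforms in their own family, per kilobase, differed between TRAP and lysate to unequal extents. Among the 3 sugar carriers Slc2a5 made up 79.4 ± 4.4% in TRAP and 6.21 ± 2.08% in lysate (SD, n = 14), and the ranges, 68.7 to 84.6% in TRAP and 3.81 to 12.3% in lysate, were far apart. Slc2a3 made up 3.64 ± 1.90% in TRAP and 48.7 ± 6.4% in lysate. Of the hexokinases, Hk1 held 18.4 ± 4.7% in TRAP and 97.0 ± 1.1% in lysate, with Hk2 at 53.9 ± 10.4% in TRAP and 2.16 ± 1.10% in lysate, and Hk3 at 27.8 ± 12.5% in TRAP and 0.83 ± 0.42% in lysate. Every mouse had a higher share of Slc2a5, Hk2 and Hk3 in TRAP than in its own lysate. Within TRAP the hexokinase shares differed between cohorts: Hk3 held 40.9 ± 4.8% in cohort 2 (37.4 to 50.4%) and 17.9 ± 4.0% in cohort 1 (13.7 to 24.5%), and Hk2 held 43.6 ± 5.5% in cohort 2 and 61.6 ± 4.4% in cohort 1.

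The phosphofructokinase subunits were mixed in both fractions. Pfkl held 41.3 ± 9.9% in TRAP and 21.9 ± 3.6% in lysate, Pfkm 46.0 ± 5.4% in TRAP and 57.8 ± 3.3% in lysate, and Pfkp 12.7 ± 5.6% in TRAP and 20.3 ± 6.6% in lysate. Pfkl had the higher share in TRAP in all 14 mice. These means pool the cohorts. In TRAP of cohort 2 Pfkl led, with 51.4 ± 2.4%, before Pfkm with 41.5 ± 2.7% and Pfkp with 7.12 ± 0.97%. In TRAP of cohort 1 Pfkm led, with 49.4 ± 4.3%, before Pfkl with 33.8 ± 5.2% and Pfkp with 16.8 ± 3.5%. The lead of Pfkm rests on division by exon length, 3340 bases for Pfkm and 6675 for Pfkl. Undivided, Pfkl was above Pfkm in every TRAP library of cohort 1 except that of the run mouse Male2 (64.35 against 66.6 CPM). Of the Pfkfb enzymes, Pfkfb3 held 54.3 ± 11.8% in TRAP and 37.7 ± 4.8% in lysate, Pfkfb4 34.3 ± 16.5% in TRAP and 22.5 ± 12.4% in lysate, and Pfkfb2 11.4 ± 6.4% in TRAP and 39.8 ± 11.1% in lysate. Their order per kilobase in TRAP also turned with the cohort. Pfkfb4 was at 50.5 ± 8.7% and Pfkfb3 at 42.7 ± 6.7% in cohort 2, and Pfkfb4 at 22.1 ± 7.5% and Pfkfb3 at 62.9 ± 5.3% in cohort 1. Undivided by exon length, Pfkfb3 was above Pfkfb4 in every TRAP library except that of the cohort 2 home cage mouse Female2 (54.0 against 69.3 CPM). Aldoa made up 61.8 ± 4.8% of the aldolases in TRAP and 52.5 ± 5.8% in lysate. Ldhb was the main lactate dehydrogenase subunit in both, at 88.6 ± 1.1% in TRAP and 78.8 ± 1.8% in lysate. Those ranges, 86.3 to 90.1% in TRAP and 75.6 to 81.8% in lysate, were apart in both cohorts.

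Monocarboxylate carriers and pyruvate dehydrogenase kinases had shares that differed between cohorts as well as between fractions. In cohort 2 Slc16a3 held 57.8 ± 10.5% in TRAP and 9.12 ± 2.53% in lysate, and in cohort 1 it held 12.7 ± 4.4% in TRAP and 1.66 ± 0.73% in lysate. Slc16a1 held 34.4 ± 8.8% in TRAP and 84.6 ± 3.0% in lysate of cohort 2, and 73.7 ± 4.2% in TRAP and 91.2 ± 2.1% in lysate of cohort 1. All 14 mice had a higher share of Slc16a3 and a lower share of Slc16a1 in TRAP, and the leading lactate carrier in TRAP was Slc16a3 in cohort 2 and Slc16a1 in cohort 1. Pdk1 held 31.0 ± 2.9% in TRAP and 6.69 ± 1.51% in lysate of cohort 2, and 46.6 ± 5.4% in TRAP and 14.4 ± 1.7% in lysate of cohort 1. Pdk2 held 46.3 ± 5.9% in TRAP and 75.1 ± 4.6% in lysate of cohort 2, and 19.8 ± 3.2% in TRAP and 36.5 ± 5.5% in lysate of cohort 1. All 14 mice had a higher share of Pdk1 and a lower share of Pdk2 in TRAP. Per kilobase the leading kinase in TRAP was Pdk2 in cohort 2 and Pdk1 in cohort 1. That order rests on exon length, 7779 bases for Pdk1 and 3163 for Pdk2. Counts in TRAP, not divided by length, were 13895 to 29527 for Pdk1 and 2658 to 12900 for Pdk2, so that Pdk1 led in both cohorts.

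**Figure D2:**
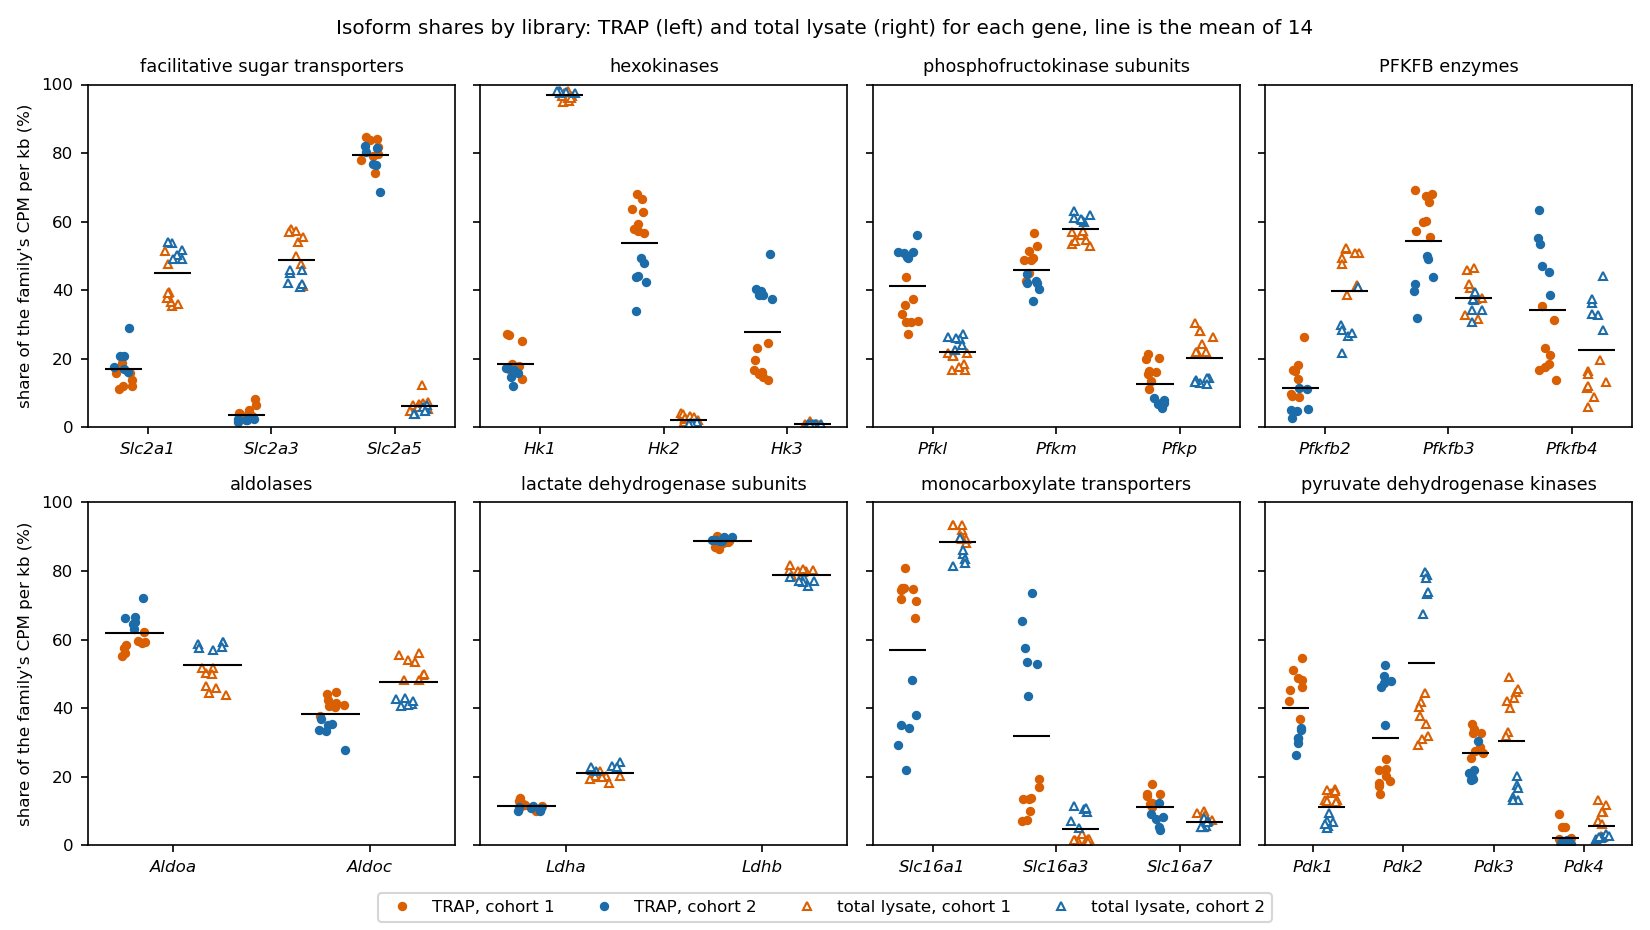
Share of each isoform in the summed CPM per kb of its family (vertical axis, percent) for every library, with TRAP as filled circles on the left and total lysate as open triangles on the right of each gene. Colours mark cohorts and lines the mean of 14 libraries. Slc2a5, Hk2 and Hk3 make up most of their families in TRAP and little in lysate, and the colours separate for Slc16a1, Slc16a3 and Pdk2.

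Levels in the 2 cohorts differed together with base composition. GC content of the longest transcript ran from 37.7% (Slc16a7) to 57.7% (Pkm) among the 36 genes. Of the 22 genes over 50% GC, 21 had a higher mean level in cohort 2 than in cohort 1 in TRAP and 21 in lysate. Of the 14 genes at or under 50%, 2 did in each fraction. Across the 36 genes, which share libraries and are not replicates, Spearman's correlation of GC with the log2 level of cohort 2 over cohort 1 was 0.89 in TRAP and 0.87 in lysate. Hk3 (56.8% GC) was 2.23 higher in cohort 2 on the log2 scale in TRAP and 1.88 in lysate, Slc16a3 (56.6%) 1.76 and 1.38, and Mpc2 (43.2%) was at -1.59 and -1.95. For the difference of the TRAP to lysate ratio the correlation with GC was 0.15. The part of GC content in the cohort differences of levels and shares was not tested.

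**Figure D3:**
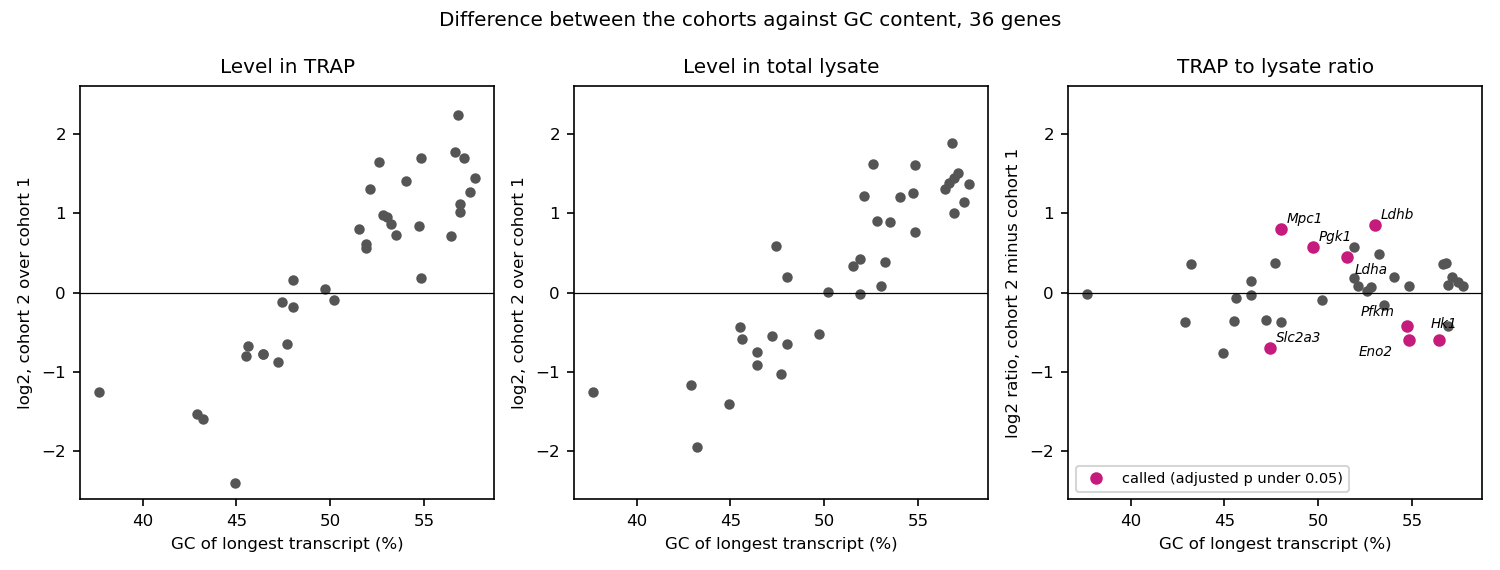
Difference between the cohorts (log2, cohort 2 relative to cohort 1) against GC content of the longest transcript for the 36 genes, for the level in TRAP, the level in total lysate and the TRAP to lysate ratio. The cohort difference in level climbs with GC in both fractions. That of the ratio, in which called genes are coloured, shows little such slope.

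The TRAP to lysate ratio itself differed between cohorts for 8 of the 36 genes, 4 higher and 4 lower in cohort 2. Over all 16716 tested genes, 8.56% were called higher and 11.9% lower, shares near those of the 36. The 4 lower in cohort 2 were Slc2a3 (-0.70 ± 0.19, adjusted p = 0.0085), Hk1 (-0.60 ± 0.16, 0.0071), Eno2 (-0.59 ± 0.16, 0.0077) and Pfkm (-0.43 ± 0.15, 0.043). All 4 were lower in TRAP than in lysate in both cohorts, further so in cohort 2, where the median of the neuronal markers was -1.83 against -1.11 in cohort 1. The 4 higher in cohort 2 were Ldhb (0.85 ± 0.16, adjusted p = 0.00038), Mpc1 (0.79 ± 0.17, 0.0011), Pgk1 (0.57 ± 0.15, 0.0074) and Ldha (0.45 ± 0.13, 0.017). Of these, Ldhb, Mpc1 and Pgk1 share at least 21.0% of their windows with other genes. The part of neuronal mRNA or of shared reads in these differences was not tested. Without the 2 mice whose sex markers went against the titles 7 of the 8 remained called, and Ldha was at an adjusted p of 0.13. With the mouse as a block Pfkm was not called (adjusted p 0.072), and Slc2a5 was, at 0.47 (adjusted p 0.048).

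Running was asked about within each fraction, and none of the 36 genes was called in either. In TRAP, edgeR called 7 of 15203 genes (0.046%) and 0 of the 36, and DESeq2 and limma-voom also called 0 of them. At an unadjusted p under 0.05 there were 540 genes, 3 of them among the 36. Log2 folds of run over home cage lay between -0.43 and 1.53 with a median of -0.01, and 35 of the 36 lay within 0.5 of no difference. The SE of these folds had a median of 0.13.

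The 3 genes with the smallest p in TRAP were Slc16a3, Pdk4 and Slc2a3, each with an adjusted p of 0.999. CPM in this and the next comparison are scaled within the fraction. Slc16a3 was at 4.83 to 9.99 CPM in run TRAP of cohort 1 (median 7.52) and at 7.74 to 12.1 CPM in home cage TRAP (median 11.7). In cohort 2 it was at 24.2, 28.2 and 31.0 CPM in run TRAP and 29.6, 30.7 and 42.6 CPM in home cage TRAP. The groups overlapped in both cohorts, and the log2 fold was -0.43 ± 0.18 (unadjusted p = 0.028).

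Pdk4 in TRAP gave the widest difference and split by cohort. In cohort 1 the run libraries were at 4.01 to 16.5 CPM (median 10.1), 576 to 2209 counts, and the home cage libraries at 0.248 to 3.32 CPM (median 1.505), 25 to 478 counts, with no overlap. Of the 36 genes Pdk4 and Mpc2 lay apart in this way, beside 1.45% of all genes tested with every run library higher and 1.03% with every one lower. In cohort 2 they were at 0.385, 0.629 and 2.32 CPM in run mice and at 0.485, 1.251 and 1.61 CPM in home cage mice, fully overlapping. The log2 fold was 2.59 ± 0.68 in cohort 1 (adjusted p = 0.91), -0.003 ± 0.79 in cohort 2 and 1.53 ± 0.64 over both (unadjusted p = 0.029). Without the 2 mice whose sex markers went against the titles it was 2.24 (adjusted p = 0.41). In lysate Pdk4 was at 5.34 to 42.0 CPM in run mice of cohort 1 and 6.95 to 24.7 CPM in home cage mice, overlapping.

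Slc2a3 in TRAP was at 24.8 to 42.9 CPM in run mice (median 33.9) and 19.6 to 38.3 CPM in home cage mice (median 25.8), with a log2 fold of 0.33 ± 0.15 (unadjusted p = 0.043). In cohort 2 all 3 run libraries, from 32.1 to 36.02 CPM, lay above all 3 home cage libraries, from 19.6 to 28.7 CPM, and in cohort 1 the groups overlapped. Slc2a3 was apart in the same direction in lysate of cohort 2, alone among the 36 genes and beside 4.72% of all genes tested. In TRAP of cohort 2, Slc2a1 and Pfkm were also higher in all run libraries and Pdk1 lower in all of them, so that 3 of 36 genes lay wholly above and 1 wholly below, beside 4.56% and 4.57% of all genes tested. The 11 neuronal markers had a median log2 fold of 0.17 in the same comparison, with 9 positive and 0 called. Whether neuronal mRNA takes part in that value was not tested.

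**Figure D4:**
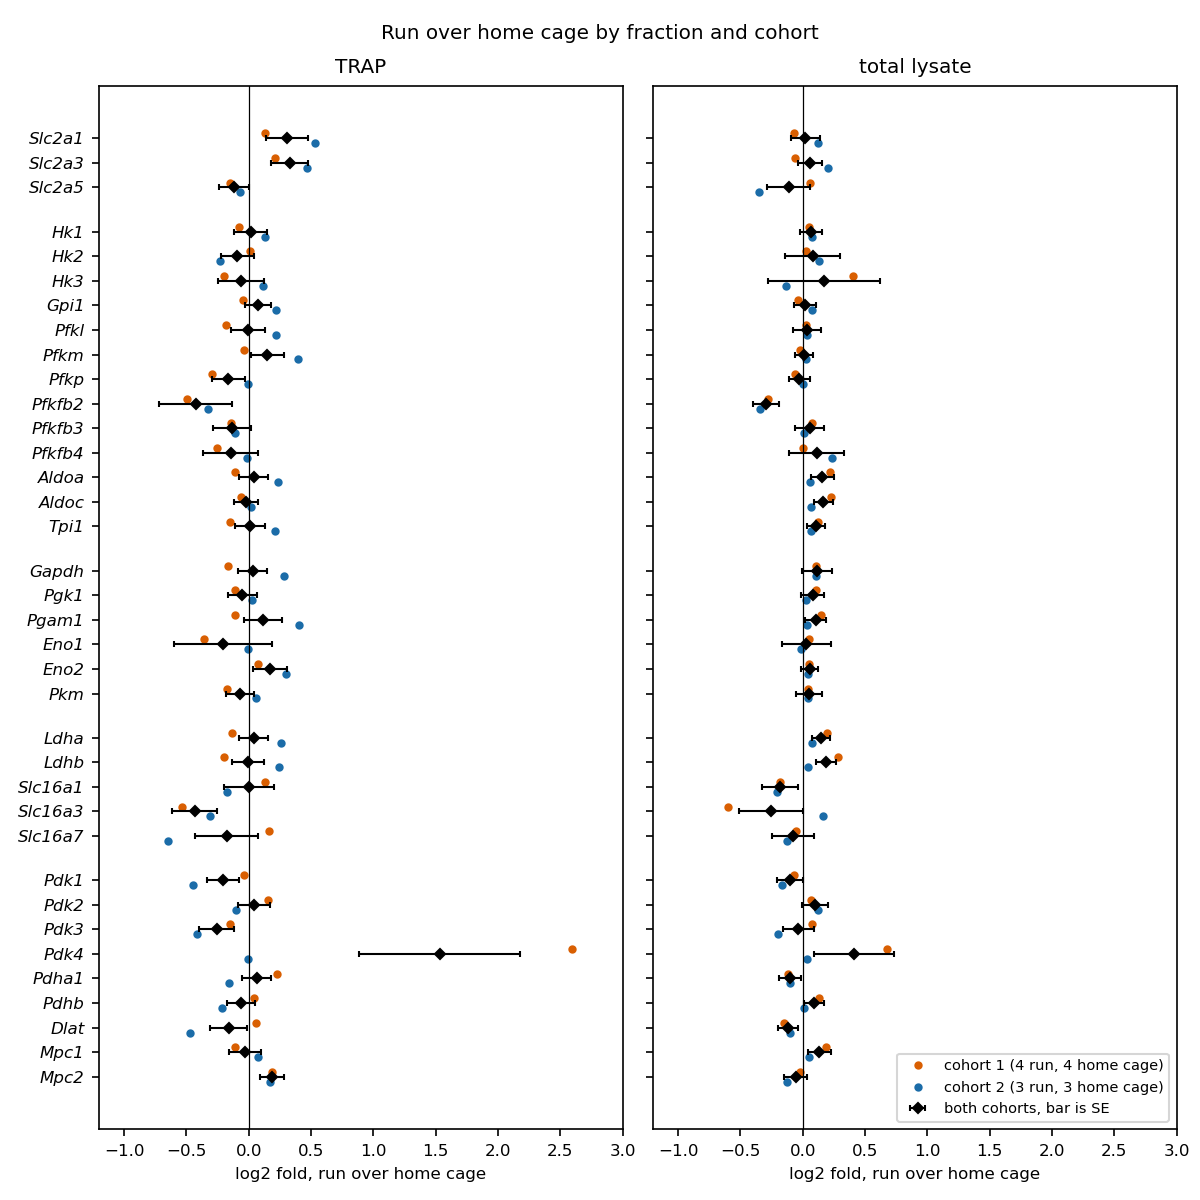
Log2 fold of run over home cage for the 36 genes in TRAP (left) and total lysate (right). Diamonds are the fit over both cohorts with its SE and dots the fits within each cohort. All diamonds lie within 0.5 of 0 except that of Pdk4 in TRAP, whose cohort 1 value is 2.59.

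In total lysate edgeR called 5 of 16091 genes (0.0311%) and 0 of the 36, and DESeq2 and limma-voom also called 0 of the 36. At an unadjusted p under 0.05 there were 1192 genes and 3 of the 36. Folds on the log2 scale ran from -0.30 to 0.41, with a median of 0.06, and 25 of 36 were positive. The 3 with the smallest p were Pfkfb2, Ldhb and Aldoc. Pfkfb2, the isoform regulated by phosphorylation downstream of insulin, was at 14.8 to 26.8 CPM in run lysate (median 19.8) and 16.6 to 31.9 CPM in home cage lysate (median 28.0), a log2 fold of -0.30 ± 0.10 (adjusted p = 0.57). In cohort 1 all 4 run libraries, 19.8 to 26.8 CPM, were below all 4 home cage libraries, 28.0 to 31.9 CPM, as were 1.69% of all genes tested.

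Ldhb was at 925 to 1212 CPM in run lysate (median 1130.0) and 884 to 1139 CPM in home cage lysate (median 929), a log2 fold of 0.19 ± 0.08 (adjusted p = 0.66). The groups overlapped in both cohorts. Aldoc was at 1850.0 to 2623 CPM in run lysate (median 2137) and 1650.0 to 2758 CPM in home cage lysate (median 1733), at 0.17 ± 0.08 (adjusted p = 0.67). In cohort 1 its run libraries were all above its home cage libraries, as were those of 1.68% of all genes tested, and in cohort 2 the groups overlapped.

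**Figure D5:**
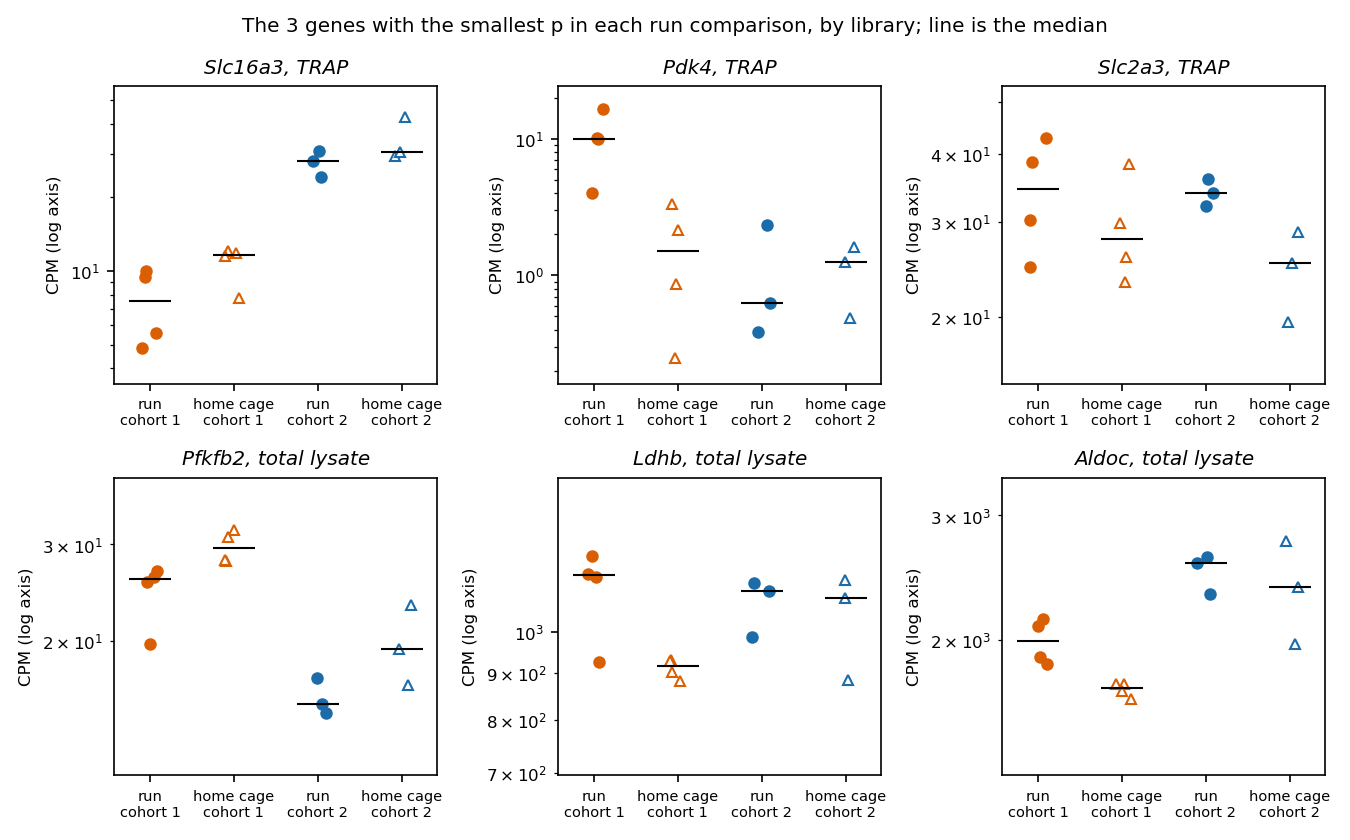
CPM (log axis, scaled within the fraction) of the 3 genes with the smallest p in each run comparison, by library, with run as filled circles and home cage as open triangles and a line at the median. Slc16a3, Slc2a3 and Pdk4 are shown in TRAP, Pfkfb2, Ldhb and Aldoc in total lysate. Run and home cage are apart for Pdk4, Pfkfb2 and Aldoc in cohort 1 and for Slc2a3 in cohort 2, and overlap elsewhere.

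Differences of the run effect between fractions or cohorts were tested as such, and 0 of the 36 genes were called in any of these 3 tests by edgeR, DESeq2 or limma-voom. For TRAP minus lysate edgeR called 0 of 16716 genes (0.0%), with 655 genes and 0 of the 36 at an unadjusted p under 0.05, and DESeq2 called 27 genes. The smallest p belonged to Pdk4 (1.23 ± 0.72), Mpc2 (0.24 ± 0.15) and Slc2a1 (0.30 ± 0.20), each with an adjusted p of 1.0. For cohort 2 minus cohort 1 in TRAP edgeR called 0 of 15203 genes (0.0%), with 651 at an unadjusted p under 0.05, 1 of them among the 36, and DESeq2 called 1. The smallest p were those of Pdk4 (-2.63 ± 1.04), Gapdh (0.45 ± 0.22) and Dlat (-0.53 ± 0.27), at an adjusted p of 0.91. In lysate edgeR called 0 of 16091 genes (0.0%), with 329 at an unadjusted p under 0.05 and 0 of the 36, and DESeq2 called 2. The smallest p belonged to Slc16a3 (0.78 ± 0.50), Ldhb (-0.23 ± 0.16) and Slc2a3 (0.27 ± 0.19), at an adjusted p of 1.0.

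Other genes of the same pathways were taken from lists and described for the fractions. Of all genes tested, 34.0% were higher in TRAP and 40.1% lower. Of 16 tested other glycolytic enzymes 4 were higher in TRAP and 9 lower (median -0.70), among them galactose mutarotase Galm at 2.62 ± 0.24, the muscle enolase Eno3 at 2.15 ± 0.16 and D-lactate dehydrogenase Ldhd at -1.94 ± 0.22. Of 22 other sugar and monocarboxylate carriers 10 were higher and 7 lower (median 0.16), with the largest folds for the glucose 6-phosphate carrier Slc37a2 (112 ± 34.0 CPM in TRAP against 2.31 ± 0.78 CPM in lysate, SD, log2 5.57 ± 0.17), the urate and sugar carrier Slc2a9 (4.30 ± 0.47) and the aromatic amino acid carrier Slc16a10 (3.00 ± 0.26). A list that joined the rest of the pyruvate dehydrogenase system to Pcx, Pck1 and Pck2 had 5 of 7 tested genes lower and 2 higher (median -1.18). The phosphatase of the complex, Pdp1, was at -2.10 ± 0.13. Pyruvate carboxylase Pcx (-1.81 ± 0.12) and Pck2 (1.48 ± 0.11) are not part of the complex. Of 11 genes of the pentose phosphate pathway 8 were higher and 2 lower (median 1.56), with H6pd at 2.69 ± 0.14, Pgd at 2.29 ± 0.09 and Pgls at 2.28 ± 0.13. None of these genes was called in either run comparison.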

How the data were processed

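Read counts of poly(A) RNA were analysed for 28 libraries of 14 mice. Per the labels' protocols, RNA was isolated with an RNeasy kit and libraries were made with Nextera XT. The submitters' processing notes name GRCm38 as the build and STAR 2.7.7a, featureCounts and DESeq2 as tools, with no word here on annotation, strand setting or multimapping reads. The deposited values are raw counts per gene symbol, whole numbers without normalization. Columns without a cohort mark were taken as cohort 1, and 0 columns lay outside the series. No pair of libraries of a group agreed within sampling noise (lowest chi-square per degree of freedom 70.1).

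edgeR 4.0.16 quasi-likelihood F tests (R 4.3.3) with TMM, filterByExpr on the groups and Benjamini-Hochberg adjustment over all genes tested were run with cohort as a term, and a gene was called at an adjusted p under 0.05. Log2 folds are TRAP over lysate, or run over home cage, with the SE of the fit. CPM used TMM over all 28 libraries, or within a fraction for the run comparisons. Exon lengths, positions, overlaps and GC content came from GENCODE M21, and promoters from RefSeq (GRCm38.p6). DESeq2 1.42.0 and limma 3.58.1 (voom) were alternatives, as were other scaling, filters, samples and terms. The scripts were tested on simulated data. All 36 genes were named between the fractions; in other tests the called genes and the 3 with the smallest p; of pathway lists up to 3 called genes with the largest fold and a mean log2 CPM no lower than 1. Members and lists were chosen with earlier results of these data known. TRAP and lysate of a mouse are paired by the titles. Their deviations from the group and cohort means correlated between -0.058 and 0.11 over genes, above 0.1 in 1 of 14 mice. Among the 3 or 4 lysates of the same activity and cohort, 9 of 14 TRAP libraries correlated best with their own partner. The main fits over all 28 libraries did not use the pairing, and the block on the mouse was the alternative that did.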

Additional observations from a re-analysis of the deposited data

Results flagged for a closer look

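The TRAP to lysate ratio of 8 genes differed between the cohorts by a direct test over all 28 libraries (edgeR, adjusted p under 0.05). On the log2 scale, cohort 2 minus cohort 1, the differences were 0.850 for Ldhb, 0.794 for Mpc1, 0.571 for Pgk1 and 0.447 for Ldha, and -0.703 for Slc2a3, -0.601 for Hk1, -0.592 for Eno2 and -0.426 for Pfkm. Over all 16716 genes tested, 8.56% were called higher and 11.9% lower, and the 4 of 36 called each way were near those shares. With the mouse as a block Pfkm was not called (adjusted p 0.072) and Slc2a5 was (0.47, adjusted p 0.048). In cohort 2 and cohort 1 the median log2 fold of TRAP over lysate was 6.89 and 6.33 for microglia markers, -1.83 and -1.11 for neuronal markers and -0.93 and -0.43 for astrocyte markers. The part of these shifts in the 8 differences was not tested.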

How the results depend on the processing

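The numbers of the 36 genes called in TRAP against lysate stayed between 9 and 11 higher and between 18 and 23 lower under every tool, scaling, filter, sample choice and term tried, and at 10 higher and 22 to 23 lower when 1 mouse was left out. With the replicate block on the mouse they were 10 higher and 22 lower, and for the difference of the ratio between cohorts 5 higher and 3 lower, with Pfkm no longer called (adjusted p 0.072) and Slc2a5 called (0.47, adjusted p 0.048). Pfkm was also lost there with DESeq2 (0.051), which called 7 higher in place of 4, adding Slc2a5, Hk2 and Mpc2. The block changed no other call. Direction changed for 3 genes that were not called between the fractions: Gapdh (0.04) was at -0.038 without the 2 mice whose sex markers went against the titles and -0.074 in run libraries only, with a range of -0.045 to 0.089 leaving out 1 mouse; Pdk3 (-0.16) was at 0.052 in cohort 2 only; Mpc1 (-0.04) was at 0.411 in cohort 2 only, 0.040 in home cage libraries only and -0.118 to 0.003 leaving out 1 mouse. Calls lost or gained in 1 cohort or 1 activity were those of Eno1 and Ldhb (cohort 1 only, adjusted p 0.070 and 0.52), Pfkfb2, Pkm, Gpi1 and Pfkl (cohort 2 only, 0.055, 0.11, 0.15 and 0.31), Pfkl, Eno1 and Pkm (home cage only, 0.082, 0.069 and 0.091) and Ldhb (run only, 0.21), while Mpc1 was called in each cohort alone (0.0097 in cohort 2, 0.0048 in cohort 1) and Pdk3 in run libraries only (-0.34), in cohort 1 only (-0.31) and without the home cage mouse Male1 of cohort 2 (-0.24). Pkm, Gpi1, Pfkl and Aldoa were not called without the cohort term (0.41, 0.45, 0.56 and 0.081). In the run comparisons 0 of the 36 were called under any setting. Pdk4 in run against home cage TRAP was at -0.003 in cohort 2 only, and the median of the 36 in TRAP was -0.110 in cohort 1 only, against -0.013. The use of run libraries only and the alternatives for differences between cohorts were chosen after seeing the data. Without division by exon length, 21 isoform shares moved by their SD or more and 29 did not. The cause of these changes was not tested. Counts of 25 to 2209 for Pdk4 in TRAP, 68 to 817 for Eno1 and 13 to 322 for Hk3 in lysate limit those values.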

Other observations

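Genes that regulate or receive the products of glycolysis also differed between TRAP and lysate, where 34.0% of all genes tested were higher and 40.1% lower. Of 19 regulators of glycolytic genes 9 were higher in TRAP and 5 lower (median log2 fold 0.37). Mlxipl, a glucose-sensing transcription factor also called ChREBP, was at 32.2 ± 15.7 CPM in TRAP and 0.49 ± 0.32 CPM in lysate (SD, n = 14; log2 6.01 ± 0.31 SE). Txnip, a glucose-induced brake on glucose uptake, was at 227 ± 66.7 CPM in TRAP and 10.3 ± 3.3 CPM in lysate (4.45 ± 0.14), and the related factor Mlxip at 2.31 ± 0.09. Of 18 genes of the tricarboxylic acid cycle 6 were higher and 10 lower (median -0.29), with the NADP-dependent Idh2 at 2.36 ± 0.10, Suclg2 at 2.07 ± 0.08 and the NAD-dependent subunit Idh3a at -1.64 ± 0.07. Of 10 genes of the shuttles that carry NADH electrons into mitochondria 1 was higher and 8 were lower (median -0.92), among them the aspartate carrier Slc25a12 at -1.45 ± 0.09, Got1 at -1.36 ± 0.10 and Mdh1 at -1.11 ± 0.06. None of these genes was called in either run comparison.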
